A study of Mus musculus with 78 samples.

Results

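Complex I of the respiratory chain is represented in the liver count table by 46 protein-coding genes whose mouse symbol starts with Nduf and which reached at least 1 CPM (the count scaled to library size) in 3 or more libraries. The table had 43629 rows, and 12596 protein-coding genes passed the same filter. Of 50 Nduf rows, 46 were protein coding, and all 46 passed. They were 36 subunits of the complex, 8 Ndufaf assembly factors, which help build it and are not part of the finished enzyme, and 2 genes with an Nduf name that belong elsewhere (Ndufa4, now counted with complex IV, and its relative Ndufa4l2). All members except Ndufa4l2 were above 1 CPM in all 78 libraries, and Ndufa4l2 was above it in 33. Every one of the 46 was tested in every comparison.

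Complex I takes electrons from NADH, passes them along iron-sulphur clusters to ubiquinone and pumps protons across the inner mitochondrial membrane. Its matrix arm holds the NADH site and the clusters, and its membrane arm holds the pumps. A core of subunits is shared with bacteria, in part encoded by the nucleus and in part by mitochondrial DNA, and a larger set of accessory subunits surrounds it. In hepatocytes the complex reoxidises the NADH made by fatty acid oxidation and the citric acid cycle.

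The mice were UM-HET3 animals of both sexes at 6 and 12 months, and males of other stocks. At 6 months the groups were controls and mice given acarbose (1000 ppm), rapamycin (42 ppm), Protandim (1200 ppm), 17-alpha-estradiol (14.4 ppm) or 40% calorie restriction for 2 months. At 12 months they were controls and mice given acarbose (1000 ppm), rapamycin (14 ppm) or 40% calorie restriction for 8 months. Male C57BL/6J mice of 14 months had eaten 0.12% methionine for 12 months or the same diet with 0.86%. Male growth hormone receptor knockouts (GHRKO) of 5 months came from a C57BL/6J by BALB/cByJ cross, and male Snell dwarfs of 5 months, which carry a pituitary mutation, from a PW/J by C3H/HeJ cross, each with littermate controls. There were 3 biological replicates in each of 26 groups. Both mutations are present throughout life, so development and adult hormone levels cannot be told apart.

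The libraries held 15521588 to 37778510 assigned counts, of which the members made up 0.276 to 0.566%. Ghr, the receptor deleted in the knockout, had 47.9, 75.3 and 77.5 CPM there against 622, 615 and 456 CPM in its controls. Pou1f1, the gene mutated in the Snell dwarf, is a pituitary gene and had 0 or 1 count in these livers, so it checks nothing. Hepatocyte markers (7 of 8 matched) summed to 63072 to 208068 CPM, and differed between groups as given beside the results. Marker lists of other tissues (muscle, pancreas, kidney and adrenal) exceeded 1000 counts in 17 libraries, among them all 3 control males of 12 months and all 3 Snell controls. With the pancreas marker Cela1 not counted, a change made after seeing the data, they exceeded it in 9, which included calorie-restricted female 2 and male 2 at 6 months and Snell dwarf 1 for muscle, and calorie-restricted female 1 at 12 months for the adrenal list. In bulk tissue, fewer cells of a type and less RNA per cell cannot be told apart.

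The sequences before the transcription start were read because the subunit genes shifted together in several comparisons. RefSeq windows (GRCm38.p6) matched 40 of the 46 members by symbol. The NRF1 motif, whose letters stand in capitals in the matches printed next, was on either strand in the 250 bases before the start in 7 of 34 subunit windows (20.6%) and in 1 of 7 Ndufaf windows (14.3%), against 3.74% of all 32851 windows. The letters AAGGTCA, read by oestrogen-related receptors, stood in 3 of 34 subunit windows (8.82%) against 4.08% of all windows. The ETS letters CCGGAAGT (2.88% of all windows) and the YY1 motif (0.301%) were in none of the 34 subunit or 7 Ndufaf windows. No NRF1 match of a member overlapped an AAGGTCA match. A match is a run of letters and not a measured site, and the windows of shared or GC-rich starts were not treated apart.

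NRF1 matches of 6 members are shown, with the bases on each side, so that the letters shared between members can be compared. All are on the strand of the gene, 5′ to 3′, and the capitals mark the match; the matches of Ndufa5 and Ndufa8 and the second of Ndufb4 fall inside an exon that GENCODE gives the same gene.
Ndufaf4, chr4:24897960-24897989 (+): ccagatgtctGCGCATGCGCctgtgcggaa
Ndufa5, chr6:24527697-24527726 (-): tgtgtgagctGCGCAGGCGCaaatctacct
Ndufa8, chr2:36049349-36049378 (-): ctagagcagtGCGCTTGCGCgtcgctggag
Ndufa11, chr17:56717692-56717721 (+): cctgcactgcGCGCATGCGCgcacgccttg
Ndufb4, chr16:37654540-37654569 (-): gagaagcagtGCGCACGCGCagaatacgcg
Ndufb4, chr16:37654428-37654457 (-): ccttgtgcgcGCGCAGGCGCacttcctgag
Ndufs5, chr4:123718265-123718294 (-): gctgcttgctGCGCAGGCGCagacccgctg

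Longer stretches before the start are shown for a member with a match and one without, since both genes rose under calorie restriction at each age. Neither stretch overlaps an exon of any gene in the annotation used.
Ndufaf4, chr4:24897943-24898082 (+), with the match in capitals: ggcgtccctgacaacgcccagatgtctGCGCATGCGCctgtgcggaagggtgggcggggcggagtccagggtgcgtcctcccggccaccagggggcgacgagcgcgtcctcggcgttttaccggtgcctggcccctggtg
Ndufc2, chr7:97399883-97400002 (+), with no match: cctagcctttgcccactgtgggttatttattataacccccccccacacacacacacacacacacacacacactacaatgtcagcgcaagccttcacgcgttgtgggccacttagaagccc

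Levels between genes were compared as CPM per kilobase of exon, and the median over the 78 libraries was taken for each gene. Subunit transcripts were far more abundant than those of the assembly factors. The middle matrix-arm subunit stood at 55.6 CPM per kilobase, the middle membrane-arm subunit at 63.1, and the middle assembly factor at 5.82. Ndufb9 and Ndufb11, accessory subunits of the distal membrane arm, were the most abundant subunits per length at 183 and 167, and Ndufb2 the least at 2.56. Its exons spanned 5628 bases over all annotated transcripts, which lowers a value per length. The assembly factors ran from Ndufaf8 at 19.3 to Ndufaf5 at 2.19. Exons of 19 members shared bases with another gene, most on the other strand, and the TruSeq RNA v2 kit used does not mark strand; for Ndufaf2 (65.6% of exon bases), Ndufb6 (39%) and Ndufa13 (30%) reads of the partner cannot be told apart.

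Calorie restriction for 2 months raised complex I subunit transcripts in livers of 6-month mice. In the values that follow, a fold change is a log2 difference ± SE from edgeR's quasi-likelihood fit, with 3 libraries per group and sex, and a gene is said to have risen or fallen where its Benjamini-Hochberg adjusted p over all genes was under 0.05. Of 36 subunits, 21 rose and 0 fell, with a median of 0.31 and all 36 above 0. Over all 14816 genes 12.5% rose and 13.6% fell, with a median of 0. Both arms took part, with 10 of 16 matrix-arm and 11 of 19 membrane-arm subunits higher, and 6 of 7 nuclear core subunits rose.

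Ndufa5 is an accessory subunit at the foot of the matrix arm (chr6:24518666-24528013). It had 66.6, 82 and 71.7 CPM in calorie-restricted females against 51.6, 57 and 56.6 in control females, and 72.9, 75.8 and 78.3 in calorie-restricted males against 48.2, 58.7 and 49.5. The groups did not overlap in either sex, and the difference was 0.48 ± 0.07 (edgeR adjusted p = 2.16e-05). Ndufc2, an accessory subunit of the membrane arm (chr7:97400003-97407802), had 59.3, 65.8 and 60.4 CPM in restricted females against 47.3, 49.4 and 56.8, and 49.5, 74.5 and 62.8 in restricted males against 36.7, 40.4 and 41.4. Its difference was 0.47 ± 0.09, again without overlap within a sex. Ndufs8, a core subunit that carries iron-sulphur clusters (chr19:3908863-3912774), had 45.1, 54.2 and 49.5 CPM in restricted females against 31.7, 34.9 and 40, and 42.4, 60.1 and 57.6 in restricted males against 36.2, 38.5 and 38.6 (0.50 ± 0.11). Ndufb5 (0.39 ± 0.08), Ndufb4 (0.34 ± 0.07) and Ndufb6 (0.32 ± 0.07), accessory subunits of the distal membrane arm, rose with all 6 restricted libraries above the control mean of their sex.

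Of the 8 assembly factors, 3 rose and 1 fell under this diet, where 12.5% and 13.6% of all genes did. Their median was 0.07. Ndufaf5, which hydroxylates an arginine of the core subunit Ndufs7 (chr2:140170649-140203689), had 3.46, 4.02 and 3.98 CPM in restricted females against 2.26, 2.6 and 2.55, and 2.37, 5.13 and 3.87 in restricted males against 2.15, 2.1 and 2.11. The lowest restricted male lay close to its controls, and the difference was 0.74 ± 0.15 (edgeR adjusted p = 0.000504). Ndufaf6 (0.63 ± 0.13) and Ndufaf4, a factor of the ubiquinone-binding part (0.32 ± 0.10), rose as well. Ndufaf1, which works with Ecsit and Acad9 on the membrane arm, fell (-0.23 ± 0.09), but its groups overlapped in both sexes and the call was lost in 13 of 20 alternatives (edgeR or DESeq2 adjusted p from 0.00773 to 0.132). Ndufaf7, a methyltransferase, and Ndufaf3, the partner of Ndufaf4, had log2 differences of -0.29 and -0.32 and did not pass.

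Muscle markers were high in 2 of the restricted libraries. Their sum over 6 of 6 matched genes was 697 CPM in restricted female 2 and 84.5 CPM in restricted male 2, and between 0.08 and 0.96 CPM in the other restricted and control libraries of that age. Without the 6 libraries of the 6-month set that carried markers of another tissue, 15 of the 46 members were called in place of 27, 14 of them among the same 27, and the subunit median was 0.24. Within one sex, edgeR called 11 members in females (10 higher, 1 lower, against 7.73% and 9.29% of all genes) and 15 in males (all higher, against 3.66%). Without the libraries with other-tissue markers these counts were 0 and 2. Leaving out any one library also lowered the female count, to 0 without restricted female 2, to 1 without control female 1 and to 4 or 5 without any of the others, and the male count ran from 4 to 20. Hepatocyte markers summed to 111829 to 131945 CPM in restricted males against 76631 to 92508 in control males, and the females overlapped. The part of these markers in the result was not tested.

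**Figure D1:**
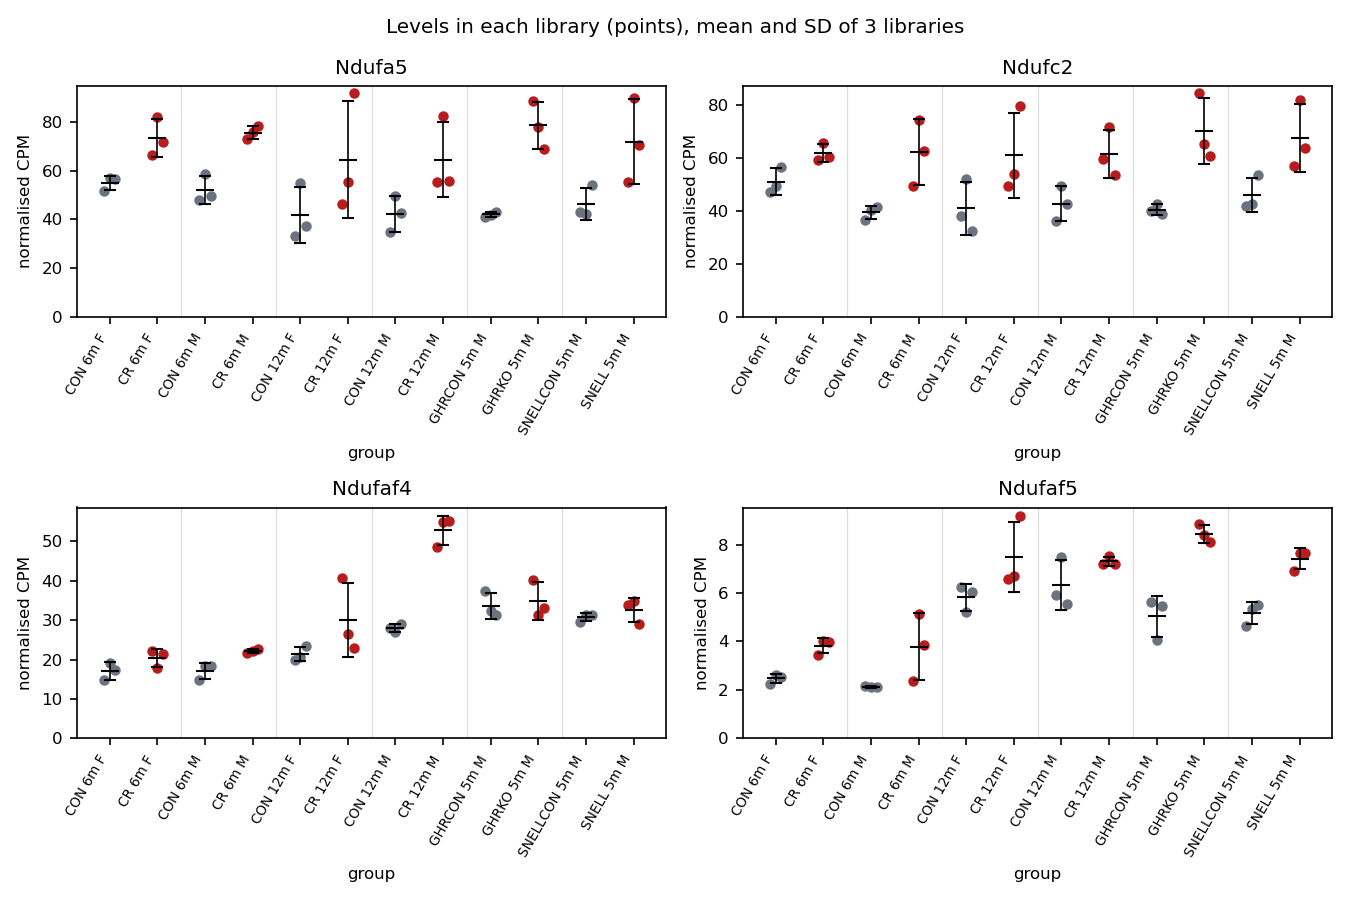
Normalised CPM of 4 members (Ndufa5, Ndufc2, Ndufaf4, Ndufaf5) in each library, by group, with controls in grey and calorie-restricted or mutant mice in red; bars are the mean and SD of 3 libraries. Ndufa5 lies above its controls in restricted mice of 6 months and in both mutants, while Ndufaf4 is highest in restricted males of 12 months, at 48.6 to 55.1.

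Calorie restriction for 8 months gave a similar middle shift with fewer calls at 12 months. Of 36 subunits, 4 rose and 0 fell, against 6.74% and 7.05% of all 13639 genes, and all 36 lay above 0 with a median of 0.30. Ndufc2 (0.57 ± 0.15), the core subunit Ndufv2 (0.47 ± 0.13), Ndufa5 (0.64 ± 0.20) and Ndufb10 (0.53 ± 0.17) were the 4. In females Ndufa5 had 46.3, 55.5 and 91.8 CPM under restriction against 33.2, 54.9 and 37.5, and in males 55.6, 82.4 and 55.7 against 34.9, 49.6 and 42.5. The females overlapped, with control female 2 close to restricted female 2, and the males did not.

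One assembly factor, Ndufaf4 (chr4:24898083-24905001), rose at 12 months by 0.72 ± 0.13 (edgeR adjusted p = 0.00122). It had 48.6, 54.8 and 55.1 CPM in restricted males against 28, 26.9 and 28.9 in control males, with a wide gap between the groups. In females the values were 40.7, 26.6 and 22.8 CPM against 20, 20.6 and 23.4, and the groups overlapped. The male difference alone was 0.94 ± 0.19, the only member called within a sex at this age, where 1.77% of all genes rose.

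The 12-month controls were themselves uneven for these genes. Relative to the mean of its group, control female 2 had a subunit median of 0.36 log2 CPM with 100% of subunits above that mean, while females 1 and 3 stood at -0.19 each. Among control males the medians were -0.20, 0.18 and 0.01. Restricted female 3 (0.80) and male 2 (0.51) were the highest of the restricted libraries, and restricted female 1 was at -0.07. Without restricted female 1, which carried adrenal markers, and the other such library of this age, 8 members were called in place of 5, and without any one library the count ran from 2 to 8. Hepatocyte markers summed to 151494 to 208068 CPM in restricted females against 135975 to 147440, and to 152772 to 162710 in restricted males against 90355 to 119481. Their part in the result was not tested.

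Between the ages, the effect of calorie restriction on the members did not pass the test of its difference. The contrast of 12 against 6 months called 0 of 46 in edgeR and 0 in DESeq2, against 12.8% of all 15159 genes, and 5 members had an unadjusted p under 0.05. The smallest p values were those of Ndufaf6 (-0.46 ± 0.18, edgeR adjusted p = 0.0877) and Ndufaf7 (0.39 ± 0.17, edgeR adjusted p = 0.117). Age, the length of restriction and any difference in handling between the sets of mice cannot be told apart in this contrast.

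Loss of the growth hormone receptor gave the widest shift among the 11 comparisons, with 33 of 36 subunits higher and 0 lower. Over all 12571 genes 7.25% rose and 7.59% fell. The subunit median was 0.61, and all 36 subunits lay above 0. The 3 subunits that did not pass were Ndufs1 (0.29), Ndufa10 (0.39) and Ndufa8 (0.24); the last was called in none of the 11 comparisons.

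Ndufa5 had 88.7, 78.2 and 69.1 CPM in the knockouts against 41.2, 41.9 and 43.2 in controls, a difference of 0.91 ± 0.12 (edgeR adjusted p = 0.00166). Ndufb11 on chromosome X (chrX:20615326-20617619) had 290, 230 and 253 CPM against 153, 152 and 166 (0.73 ± 0.13). Ndufb8 (chr19:44548572-44555440) had 124, 108 and 113 CPM against 73.5, 73.2 and 71.4 (0.67 ± 0.11). In each of the 3 the lowest knockout was far above the highest control, and controls were close together. Ndufc1 (0.80 ± 0.13), Ndufb7 (0.79 ± 0.14) and Ndufa7 (0.69 ± 0.12) completed the subunits with the smallest p.

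All 8 assembly factors had a positive difference in the knockout, with a median of 0.39, and 2 rose. Ndufaf6 had 24.4, 19.2 and 22.7 CPM against 12.7, 11.2 and 16.7 (0.72 ± 0.17), and Ndufaf5 had 8.85, 8.41 and 8.09 CPM against 5.61, 4.05 and 5.45 (0.76 ± 0.19). Neither overlapped its controls. Ndufaf4, higher under restriction, had 0.06 here. Gene length moved with the result: in knockout 1, which had the highest subunit median (0.75), the median of 900 genes with under 1 kb of exon was 0.20 and that of 7777 genes over 4 kb was -0.21. With a length and GC trend removed from each library, 27 members were called in place of 35, the subunit median was 0.45 and that of the assembly factors 0.17. The count was 22 without control 1 and 17 without control 2. Hepatocyte markers summed to 143185 to 161254 CPM in knockouts against 100183 to 109604 in controls, without overlap, and their part in the result was not tested.

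Snell dwarfs had a smaller shift in the same direction, with 14 of 36 subunits higher and 0 lower, against 9.34% and 10.8% of 12528 genes. The subunit median was 0.39, with 36 of 36 above 0. Ndufb4 (chr16:37647170-37654453) had 59.9, 81.6 and 67.2 CPM in dwarfs against 48.8, 41.5 and 46.9 (0.62 ± 0.14, edgeR adjusted p = 0.0147). Ndufc1 had 46.2, 69.6 and 53.3 CPM against 34.5, 34 and 38.8 (0.67 ± 0.16). The groups did not overlap for either gene, and dwarf 2 was the highest in both. Ndufc2 (0.57 ± 0.16), Ndufs5 (0.45 ± 0.12), Ndufb11 (0.45 ± 0.12) and Ndufa7 (0.45 ± 0.12) also rose.

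Among the assembly factors of the dwarfs, Ndufaf5 had 6.93, 7.66 and 7.67 CPM against 4.64, 5.34 and 5.51 (0.54 ± 0.16), and Ndufaf6 had 13.2, 14.1 and 15.8 CPM against 9.09, 11.1 and 11 (0.49 ± 0.14). Both rose, without overlap, and the median of the 8 was 0.19. The call of Ndufaf5 (edgeR adjusted p = 0.0478) was lost in 10 of 12 alternatives. That of Ndufaf6 (edgeR adjusted p = 0.0405) was lost in 7 of 12. The count of members called in the dwarfs rested on single libraries: it was 16 with all 6, 4 without dwarf 2, 2 without dwarf 3, 1 without control 1, 0 without control 2, 10 without control 3 and 22 without dwarf 1, the library with muscle markers. Hepatocyte markers summed to 145254 to 171873 CPM in dwarfs against 91105 to 117089 in controls, without overlap, and their part in the result was not tested.

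The calls of calorie restriction at 6 months and of both mutants, which share no libraries, overlapped as follows. Of the 21 subunits higher under restriction, 19 (90.5%) were among the 33 of the knockout (57.6%), and 12 (57.1%) were among the 14 of the dwarfs (85.7%). All 14 of the dwarfs were among the 33 of the knockout (42.4%). Ndufa5, Ndufb10 and Ndufc2 rose in these 3 comparisons and under restriction at 12 months. With 33 of 36 called in the knockout, a high overlap with it is fixed by that count, and none of these overlaps was tested.

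Methionine restriction was the comparison in which the members lay lower. Of 36 subunits, 2 fell and 0 rose, against 1.87% and 1.93% of 13858 genes, with a median of -0.20 and 32 below 0. All 29 accessory subunits were below 0, while 4 of the 7 core subunits were above it. Ndufa1, a small membrane-arm subunit encoded on chromosome X (chrX:37187588-37191163), had 43.7, 41.6 and 47.2 CPM on low methionine against 60.2, 76.4 and 71.7 (-0.65 ± 0.12, edgeR adjusted p = 0.0254). Ndufb3, of the distal membrane arm, had 29.1, 27.1 and 28.8 CPM against 37.7, 38.4 and 39.6 (-0.44 ± 0.09, edgeR adjusted p = 0.0378). The groups were separate for both. All 8 assembly factors were below 0 with a median of -0.20, and none of them passed in edgeR, with 1 of the 8 at an unadjusted p under 0.05.

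This count moved with single libraries and with gene length. It was 12 without control 1 and 0 without any one of the other 5 libraries. With the length and GC trend removed it was 0, and the medians were -0.10 for subunits and -0.09 for assembly factors, while DESeq2 called 5.

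Of the compounds given for 2 months, each called 0 to 3 members. Acarbose lowered Ndufs1, the largest core subunit of the NADH-binding part (chr1:63143596-63176833), by -0.29 ± 0.07 (edgeR adjusted p = 0.00803) and Ndufaf7 by -0.42 ± 0.13, where 3.18% of genes rose and 2.98% fell. Ndufs1 had 84.2, 73.7 and 78.5 CPM in females against 102, 121 and 107, and 92.9, 89.9 and 83.3 in males against 94.4, 94.9 and 94.6. Both sexes were lower without overlap, and the female gap was the wider. Within females Ndufs1 (-0.47), Ndufb3 (-0.46), Ndufc2 (-0.44) and Ndufaf7 (-0.67) fell, against 5.35% of genes. In males edgeR and DESeq2 called 0 members, with 1 at an unadjusted p under 0.05, and edgeR called 0% of all genes. The difference between the sexes did not pass for any member (edgeR adjusted p = 0.177 for Ndufs1). The subunit median of acarbose was 0.02. In treated females hepatocyte markers summed to 139831 to 152563 CPM against 113194 to 116189 in control females. In treated males the sums were 92603 to 103914 CPM against 76631 to 92508. Neither sex overlapped, and the part of these markers in the result was not tested. The call of Ndufaf7 over both sexes was lost in 14 of 20 alternatives, and that of Ndufs1 in 1, the fit of the compared groups alone (edgeR adjusted p = 0.0585), which called 0 members.

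Rapamycin at 42 ppm raised Ndufa3, a membrane-arm accessory subunit, by 0.51 ± 0.11 (edgeR adjusted p = 0.0382), where 0.229% of genes rose and 0.182% fell. It had 76.4, 83.2 and 96.5 CPM in females against 60, 55.8 and 71.6, and 89.7, 88.3 and 95.7 in males against 49.4, 71.1 and 63.2, so that every treated library was above every control of its sex. The subunit median was 0.16. Under 4 alternatives (no filter, length and GC trend, libraries with markers left out, compared groups alone) no member was called, and DESeq2 called 3. Leaving out any one of 9 of the 12 libraries also left 0. Treated male 2 carried 40784 counts of adrenal markers, and their part in the result was not tested.

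Protandim raised Ndufa11 (0.52 ± 0.12) and Ndufb4 (0.28 ± 0.07) of the membrane arm and Ndufaf8, the partner of Ndufaf5 (0.47 ± 0.11), where 0.81% of genes rose and 0.574% fell. Ndufa11 had 53.7, 71.2 and 65.8 CPM in females against 36.1, 39.4 and 41.3, and 49.7, 45.8 and 48.3 in males against 34.1, 43.9 and 36.3. The sexes differed in width of the gap, but the difference between them called 0 members in edgeR and in DESeq2, with 6 at an unadjusted p under 0.05. The subunit medians were 0.32 in females, where 8 members rose against 2.75% of genes, and 0.04 in males, where 0 were called in edgeR and DESeq2, against 0.0135% of genes, and 2 had an unadjusted p under 0.05. In the 3 treated females genes under 1 kb had medians of 0.15, 0.14 and 0.16, and with the length and GC trend removed none of the 46 was called in females or over both sexes. Treated female 3 carried 1603 counts of pancreas markers, and no member was called without the libraries with other-tissue markers, with the compared groups alone, or, over both sexes, without any one of 9 of the 12 libraries, that female among them. Hepatocyte markers summed to 83578 to 109761 CPM in treated females against 113194 to 116189 in control females, and their part in the result was not tested.

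17-alpha-estradiol left the members near their controls, with 0 of 46 called in edgeR and DESeq2, against 0.385% of all genes, and 2 at an unadjusted p under 0.05. These were Ndufaf1 (-0.23 ± 0.09) and Ndufaf4 (-0.26 ± 0.11, edgeR adjusted p = 0.234), whose groups overlapped in both sexes. The subunit differences ran from -0.10 to 0.14. In treated females hepatocyte markers summed to 105868 to 110093 CPM against 113194 to 116189 in control females, and their part was not tested.

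At 12 months neither compound called a member. Both were compared with the same controls as calorie restriction of that age, which were uneven for these genes. Of the 46 members, 44 lay above 0 under rapamycin and 44 under calorie restriction. The part of the shared controls in these signs, and in those under acarbose, was not tested. Acarbose had all 46 members above 0 and a subunit median of 0.28, with 0 called in edgeR and DESeq2 against 0.0587% of genes, and 11 at an unadjusted p under 0.05. Its smallest p values were those of Ndufaf6 (0.44 ± 0.13, edgeR adjusted p = 0.297) and Ndufb4 (0.39 ± 0.14). Ndufb4 had 79.5, 59.5 and 81.5 CPM in treated males against 42.5, 57.5 and 48, and 49.7, 56.6 and 46.9 in treated females against 36, 52.9 and 45.1. The males were separate and the females overlapped. The median was carried by acarbose males 1 and 3, at 0.61 and 0.72, while male 2 was at 0.07 and females ranged from -0.04 to 0.19. Rapamycin at 14 ppm had a subunit median of 0.16, with 0 called in edgeR and DESeq2, 1 at an unadjusted p under 0.05 and 0% of all genes called. That member was Ndufa4l2 (0.92 ± 0.29, edgeR adjusted p = 0.892), at 1.61, 1.18 and 1.19 CPM in treated females against 0.645, 0.926 and 0.603, and at 0.784, 1.93 and 3.45 CPM in treated males against 0.922, 0.891 and 1.41. The females were separate, the males overlapped, and male 3 was the highest. Without male 3, which carried muscle markers and a subunit median of 0.29, the median of rapamycin was 0.08. The rapamycin doses of the ages differ, so they were not compared.

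**Figure D2:**
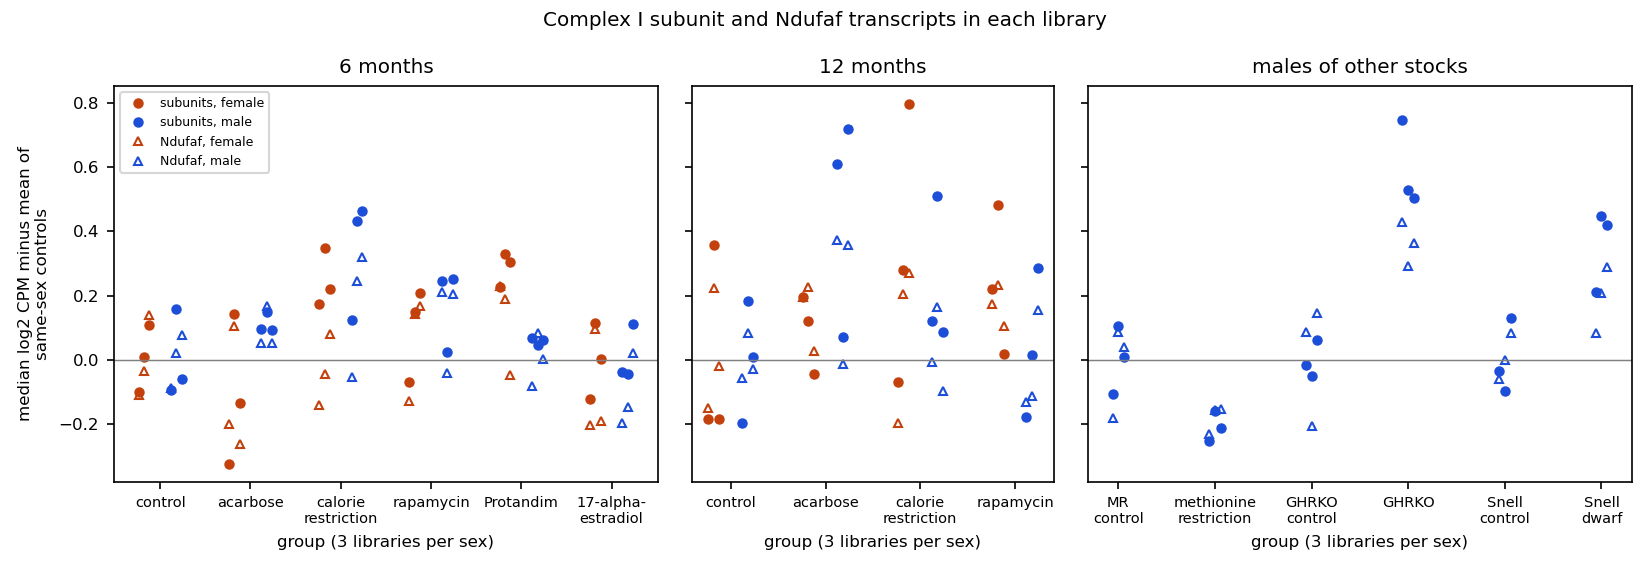
Median log2 CPM of the 36 subunits (filled circles) and 8 Ndufaf genes (open triangles) in each library, relative to the mean of controls of the same sex, by group; females in orange, males in blue. The knockouts lie highest as a group, from 0.51 to 0.75, the 3 methionine-restricted mice lie below 0, from -0.25 to -0.16, and controls of 12 months spread from -0.20 to 0.36.

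Subunits and assembly factors were set side by side over the 11 comparisons. The subunit median exceeded that of the assembly factors in 10 of them and equalled it under methionine restriction at 2 decimals. This is a description without a test of the difference. The comparisons at 6 months share their controls, as do those at 12 months, so the 11 are not independent. The factors were called in different comparisons, for which the shares of all genes are given above. Ndufaf5 and Ndufaf6 rose in 3 comparisons each, Ndufaf4 in 2 and Ndufaf8 in 1. Ndufaf1 and Ndufaf7 only fell, in 1 comparison each. Ndufaf2 and Ndufaf3 were called in none. In the dwarfs the calls of Ndufaf5 and Ndufaf6 were lost in 10 and 7 of 12 alternatives. The call of Ndufaf1 under calorie restriction at 6 months was lost in 13 of 20. Those of Ndufaf7 under acarbose and Ndufaf8 under Protandim were lost in 14 of 20 each. Over the 8 contrasts of male against female effects, 0 members were called in edgeR and in DESeq2. At 6 months the share of all genes called was 0.378% for acarbose, 0.00675% for calorie restriction, 0.054% for 17-alpha-estradiol and 0% for the others, and 5, 3, 1 and at most 6 members had an unadjusted p under 0.05. At 12 months it was 0.00733% for acarbose and 0% for the others, with 0 members at an unadjusted p under 0.05. The smallest p was that of Ndufab1, the acyl carrier protein present in both arms, under calorie restriction at 6 months (0.62 ± 0.18, edgeR adjusted p = 0.32).

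Within a sex, rapamycin and 17-alpha-estradiol at 6 months called 0 members in edgeR and DESeq2. The background was 0.0742% and 0% of genes for rapamycin females and males, with 6 and 13 members at an unadjusted p under 0.05, and 2.87% and 0.0607% for 17-alpha-estradiol, with 1 and 0. At 12 months restricted females called 0 members in both tools, against 4.72% of genes, with 10 at an unadjusted p under 0.05. Acarbose females (0% of genes) and males (0.022%) called 0, with 1 and 17 members at an unadjusted p under 0.05, and rapamycin females (0.0147%) and males (0.00733%) called 0, with 1 each.

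Of the 2 Nduf genes outside complex I, Ndufa4 rose under calorie restriction at 6 months only (0.25), and its median level of 168 CPM per kilobase was among the highest of the 46. Ndufa4l2, known as a hypoxia-induced gene, rose in the same comparison (0.88) and had log2 differences of 1.08 under rapamycin and 0.64 under Protandim that did not pass. Its median level was 0.926 CPM over all libraries, so its values rest on few reads.

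**Figure D3:**
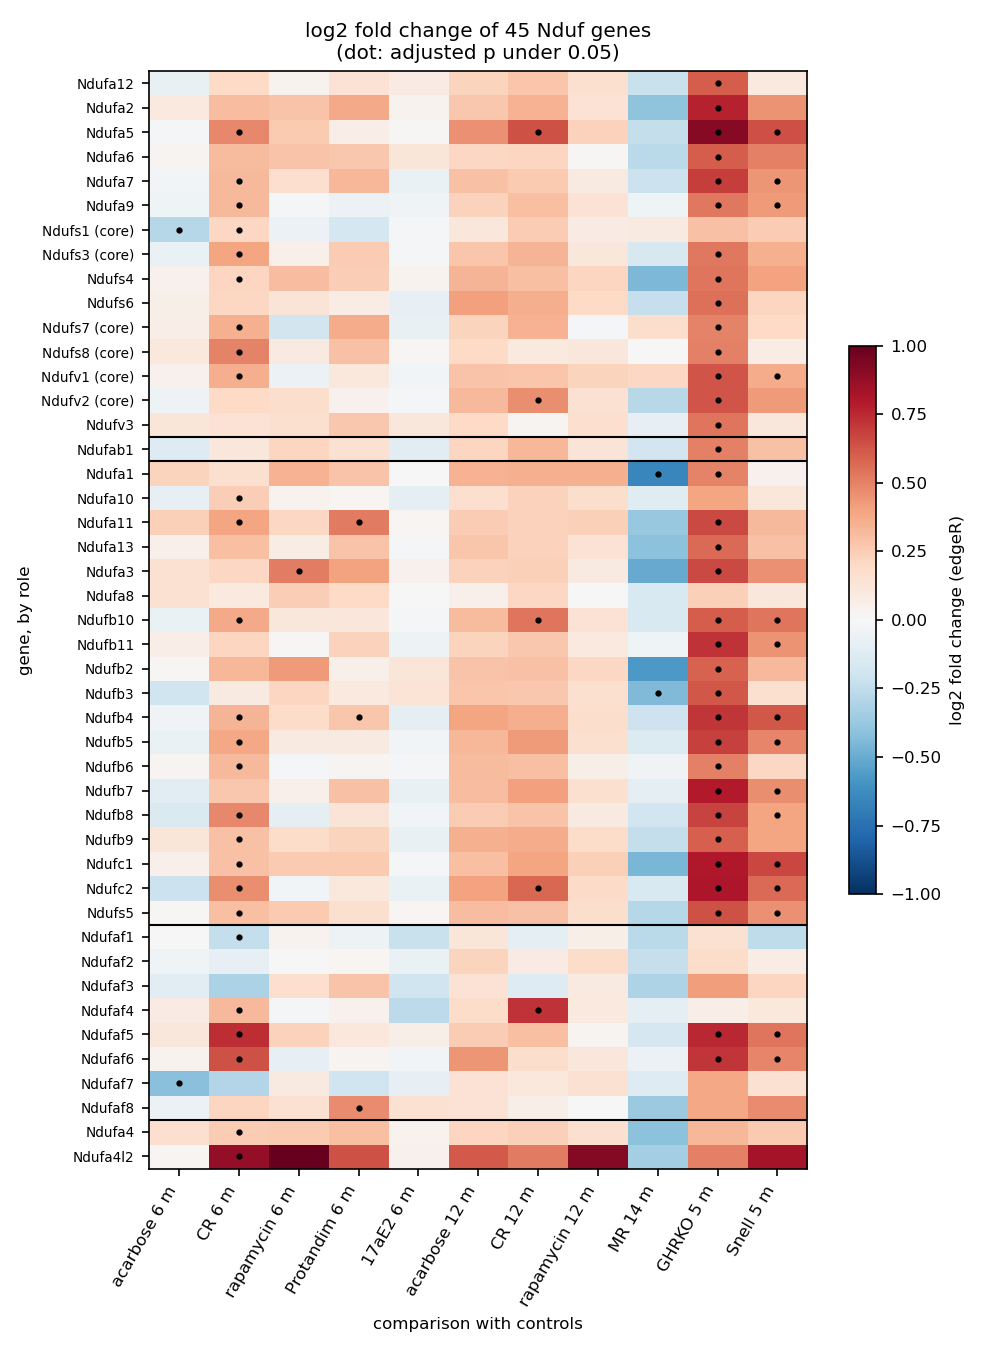
Log2 fold change of 45 of the 46 genes (rows, by role) in 11 comparisons with controls (columns), from edgeR; red is higher, blue lower, with the colour scale ending at 1 in each direction, and a dot marks an adjusted p under 0.05. The knockout column is filled with dots, 34 of 45, and the assembly factor rows differ from each other where the subunit rows shift together.

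The 7 complex I subunits encoded by mitochondrial DNA did not track the nuclear subunits in each comparison. Their counts in libraries selected for poly(A) depend on tails that these transcripts carry unevenly. At 6 months of age none of the 7 was called under calorie restriction in edgeR, where 12.5% of all genes rose and 13.6% fell. Of the 7, 1 had an unadjusted p under 0.05, and the median was 0.03. At 12 months 4 of 7 rose under calorie restriction, with all 7 above 0. The 4 were mt-Nd1 (0.48 ± 0.10), mt-Nd3 (0.60 ± 0.20), mt-Nd4 (0.38 ± 0.10) and mt-Nd6 (0.53 ± 0.15). Over all genes 6.74% rose. mt-Nd3 held only 39 to 69 counts in each control and restricted library of that age (edgeR adjusted p = 0.043), so its value rests on few reads. mt-Nd6 is encoded on the other strand of the mitochondrial genome, so reads from the transcripts opposite it cannot be told apart. Under Protandim in females all 7 were below 0 with a median of -0.39, 5 of them at an unadjusted p under 0.05, beside 0.32 for the nuclear subunits. One of these, mt-Nd5, fell (-0.59 ± 0.18, edgeR adjusted p = 0.0455), where 385 of all 14816 genes fell. In males the median was 0.11, and the difference between the sexes passed for none of the 7 in edgeR, with 4 at an unadjusted p under 0.05. In the knockout only mt-Nd6 rose (0.65 ± 0.16), where 7.25% of all genes rose. The median of the 7 was 0.13 there, beside 0.61 for the nuclear subunits.

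Under methionine restriction all 7 were lower, with a median of -1.01. One passed, mt-Nd2 (-1.01 ± 0.21, edgeR adjusted p = 0.0424), where 1.87% of all genes fell. All 7 had an unadjusted p under 0.05. mt-Nd2 had 2290, 2190 and 2340 CPM on low methionine against 3090, 4950 and 5690, so that control 1 lay nearest the restricted mice. mt-Nd3 had 32.6, 29 and 25.2 CPM against 40.6, 118 and 151, with the same order. Whether the low methionine diet or the 2 high controls set this difference was not tested. Rapamycin at 42 ppm raised mt-Nd3 (1.04 ± 0.24, edgeR adjusted p = 0.0488), where 0.229% of genes rose. Treated males had 36.8, 31.5 and 33.5 CPM, and the second of them carried adrenal markers, whose part was not tested.

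**Figure D4:**
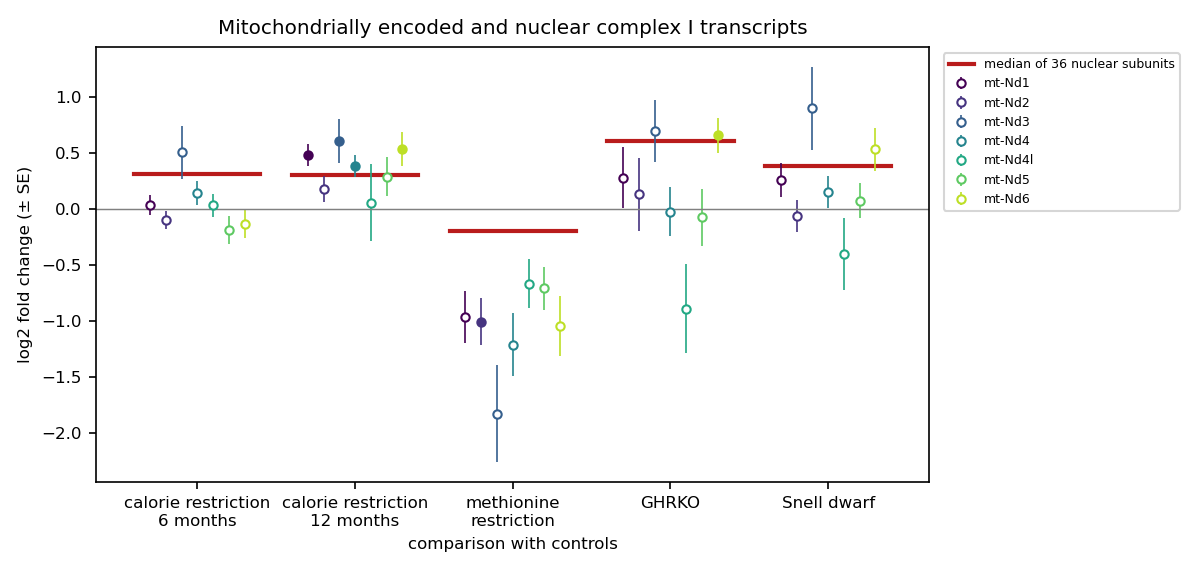
Log2 fold change ± SE (edgeR) of the 7 mitochondrially encoded complex I transcripts in 5 comparisons with controls; filled points passed at an adjusted p under 0.05, and the red line is the median of the 36 nuclear subunits. Under methionine restriction the points lie far below the nuclear median of -0.20, and at 12 months of age 4 points are filled under calorie restriction.

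Of 10 other assembly factors measured, Dmac2 and Ecsit rose and Tmem186 fell under calorie restriction at 6 months, and Tmem70 rose (0.42 ± 0.12) at 12 months. Dmac2, a factor of the distal membrane arm, rose by 0.41 ± 0.10 at 6 months, by 0.76 ± 0.13 in the knockout and by 0.78 ± 0.17 in the dwarfs. Acad9, which acts with Ndufaf1 and Ecsit, fell in the knockout (-0.40 ± 0.11) and in the dwarfs (-0.63 ± 0.10). Nubpl, which delivers iron-sulphur clusters, rose in the knockout (0.54 ± 0.13), and Dmac1 rose under Protandim (0.38 ± 0.09). Over all genes 12.5% rose and 13.6% fell under calorie restriction at 6 months, and 6.74% and 7.05% at 12 months. These shares were 7.25% and 7.59% in the knockout, 9.34% and 10.8% in the dwarfs, and 0.81% and 0.574% under Protandim.

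Of 12 regulators of respiratory genes, Esrra, an oestrogen-related receptor, rose in 4 comparisons: by 0.49 ± 0.12 and 0.61 ± 0.16 under calorie restriction at 6 and 12 months, by 0.58 ± 0.13 in the knockout and by 0.69 ± 0.11 in the dwarfs. It had 56.6, 42.4 and 53.2 CPM in the knockouts against 35.1, 33.4 and 34.3, and 45.9, 46.3 and 56.1 in the dwarfs against 31.4, 28.8 and 32.4, without overlap. Ppargc1a, a coactivator of that receptor, rose in the knockout (1.05 ± 0.24) and in the dwarfs (3.09 ± 0.63). It had 122, 42.6 and 32.4 CPM in the dwarfs against 6.21, 10.3 and 7.08, with dwarf 1 far above the others; that library also held muscle markers, and their part in this value was not tested. Gabpb1 fell under calorie restriction at both ages (-0.55 ± 0.11 and -0.43 ± 0.10), Tfb2m rose at 6 months (0.21 ± 0.07), Yy1 fell at 12 months (-0.37 ± 0.09), Tfam rose in the knockout (0.40 ± 0.11), and Ppargc1b fell under acarbose at 6 months (-0.77 ± 0.19). Nrf1, Gabpa and the remaining regulators passed in none of the 11 comparisons. Calorie restriction at 6 months called 2 of the 12 higher and 1 lower, against 12.5% and 13.6% of all genes. At 12 months it called 1 higher and 2 lower, against 6.74% and 7.05%. The shares of all genes were 7.25% and 7.59% in the knockout, 9.34% and 10.8% in the dwarfs, and 3.18% and 2.98% under acarbose at 6 months.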

How the data were processed

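The deposited table holds whole-number counts per gene for 78 liver libraries, 3 in each of 26 groups, with 43629 rows. Per the submitters' processing notes, the tools were bcl2fastq 1.8.4, Trimmomatic 0.32, STAR 2.5.2b on the GRCm38 (mm10) build, and featureCounts 1.5 for counting; the strand setting is not given in the sources used here. Rows were named by Ensembl identifier through GENCODE M21, whose exons gave lengths.

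Counts were fitted in R 4.3.3 with edgeR 4.0.16 (filterByExpr, TMM, robust quasi-likelihood) in 5 sets: 6 months, 12 months, methionine restriction, knockout and Snell dwarf, plus both ages together. At 6 and 12 months an effect is the mean of the female and male differences. SEs come from the F statistic. P-values were adjusted over all genes and called under 0.05. CPM are TMM-scaled. Alternatives were RLE factors, no filter, a replicate block, compared groups alone, DESeq2 1.42.0, a length and GC offset (spline with 4 degrees of freedom), leaving out libraries with over 1000 counts of another tissue's markers, and leaving out each library. The steps were tested on simulated data.

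Named genes were, per comparison, up to 6 subunits and 3 Ndufaf genes per direction of smallest adjusted p, or the 2 members of smallest p where none was called; genes outside this rule were named after their values were seen. The members and lists were chosen with earlier results of these data known. Pairing by replicate number was looked for in the correlation of deviations of same-numbered libraries. It was over 0.1 in all 3 in 2 of 19 group pairs (calorie-restricted males and rapamycin females at 12 months). Over all pairs it ran from -0.339 to 0.434. The 3 correlations of a group pair are not independent, so this cutoff cannot decide whether samples were paired. One member is counted in the totals, but its own values are not reported here.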

Additional observations from a re-analysis of the deposited data

Results flagged for a closer look

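Of the genes followed here, 5 had an effect of calorie restriction that differed between 12 and 6 months by the test of that difference (edgeR adjusted p under 0.05), and none was among the 46 Nduf genes. This contrast called 12.8% of all 15159 genes, so the 5 are given as values and not as a trait of these genes. Dmac2 had a difference of -0.78 on the log2 scale, from a rise at 6 months. It stood at 62.2, 51.4 and 51.2 CPM in restricted females of 6 months against 41.4, 46.8 and 36.7, and at 27.5, 23.6 and 41.4 at 12 months against 35.6, 56.2 and 37.4. In males it stood at 59.1, 54.8 and 48.9 CPM against 38.4, 42.2 and 40.8 at 6 months, and at 26.4, 27.4 and 32.6 CPM against 34.4, 30.6 and 40 at 12 months. The mitochondrially encoded mt-Nd1 (0.44) and mt-Nd6 (0.66), the assembly factor Tmem70 (0.50) and the regulator Yy1 (-0.52) were the others. Age, the length of restriction and any difference in handling between the sets of mice cannot be told apart in these values.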

How the results depend on the processing

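Of 621 alternative values of the 39 named fold changes that were called, 457 kept their call, 164 lost it and 0 reversed. The 6 named values that were not called stayed so in all 114 alternatives. Only values picked by the naming rule, all of Nduf genes, were followed in this way. Calls of mitochondrially encoded genes, other assembly factors and regulators were not, and some lay near the cutoff, such as mt-Nd2 (edgeR adjusted p = 0.0424 under methionine restriction). Counts of called members moved by over 1.5 times as follows, and the cause was not tested unless named. Without the libraries with other-tissue markers the counts were 15 for calorie restriction at 6 months (0 in females, 2 in males), 1 for acarbose at 6 months and 0 for rapamycin at 6 months and for Protandim, over both sexes and in females; the same values came with the pancreas marker Cela1 not counted, a change made after seeing the data, which gave 8 for calorie restriction at 12 months. With Cela1 counted, all control males of 12 months and all Snell controls would drop out, so that alternative was not run there. With the length and GC trend removed, counts were 0 for rapamycin at 6 months, Protandim (both sexes, and females) and methionine restriction, and 10, 3 and 2 for calorie restriction at 12 months over both sexes, in females and in males. The subunit median was 0.127 for Protandim, -0.103 for methionine restriction and 0.451 for the knockout, and the Ndufaf medians were -0.093 and 0.169 in the last 2. DESeq2 called 3 for rapamycin at 6 months, 9 for Protandim (15 in females), 2 in restricted males of 12 months and 5 for methionine restriction. Without the filter the counts were 1 for acarbose, 4 in restricted females of 6 months, 0 for rapamycin, 0 for Protandim (5 in females) and 10 for the dwarfs. With the compared groups alone, a smaller fit, they were 0 for acarbose (2 in females), 5 and 4 in restricted females and males of 6 months, and 0 for rapamycin and Protandim (0 in females). With a replicate block they were 7 for Protandim (14 in females), 1 for methionine restriction and 5 for the dwarfs. The block changed no other count by over 1.5 times, and 18 of 57 same-numbered pairs correlated over 0.1.

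Leaving out each library in turn, counts ran from 18 to 33 for calorie restriction at 6 months, 0 to 5 in its females and 4 to 20 in its males, 2 to 8 at 12 months with 0 to 1 in females, 0 to 2 for the age difference, 17 to 34 for the knockout, 0 to 22 for the dwarfs and 0 to 12 for methionine restriction. They ran from 1 to 5 for acarbose at 6 months (1 to 6 in females), 0 to 1 for rapamycin and 0 to 9 for Protandim (0 to 15 in females). The subunit medians ran from 0.184 to 0.257 for Protandim and -0.23 to -0.146 for methionine restriction, and the Ndufaf medians from 0.291 to 0.462 in the knockout and -0.293 to -0.169 under methionine restriction. Each library held at least 15521588 counts, and Ndufa4l2, at a median of 0.926 CPM, is the member with the fewest reads behind its values.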

Other observations

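In UM-HET3 controls, some members stood at other levels at 12 months than at 6 months, over both sexes, with 6 libraries at each age. These genes were picked after their values were seen, and no test was made. Ndufaf5 ran from 2.1 to 2.6 CPM at 6 months and from 5.2 to 7.49 CPM at 12 months, a ratio of means of 2.65, and Ndufs8 from 31.7 to 40 CPM and from 55.4 to 83.1 CPM, a ratio of 1.84. Neither gene overlapped between the ages. Ndufs7 went the other way, from 109 to 139 CPM at 6 months and from 61.4 to 103 CPM at 12 months. Its ratio was 0.646, and the ages did not overlap. Ndufc2 ran from 36.7 to 56.8 CPM and from 32.6 to 52.2 CPM, a ratio of 0.924, and overlapped. The share of all genes that differed between the ages was not counted. These libraries held 25888571 to 31973353 counts at 6 months and 17742947 to 19860614 at 12 months. The ages were separate sets of mice, so age and any difference in handling between the sets cannot be told apart.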
